A study of Arabidopsis thaliana with 4 samples.

Results

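The genes described here are QQS and 30 genes of starch synthesis and breakdown in Arabidopsis thaliana seedlings, 31 of the 32548 genes in the deposited expression table. They were taken by gene identifier and not by a cut on their values, with earlier results of these data known. All 31 passed the filter on low values. Transcript levels were measured by RNA sequencing in 2 libraries of bdt1 and 2 libraries of wild-type Col-0. The bdt1 libraries come from seedlings labelled bdt1-/- in the Col-0 background. The source label of these libraries spells the mutant btl1, and both spellings were taken as 1 mutant. Both genotypes were 10-day-old whole seedlings from plates of Murashige and Skoog medium at 16 h of light and 8 h of darkness, with no other allele or treatment named. The sources used here do not give the allele, how many seedlings were pooled or the hour of harvest. The submitters call the libraries of a genotype biological replicates. P-values weigh the difference between genotypes against the spread between these libraries, with information on spread shared across all tested genes.

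Starch is built in plastids. ADP-glucose pyrophosphorylase makes the activated sugar ADP-glucose, starch synthases join it into glucan chains, branching enzymes add branch points, and isoamylases trim them so that the chains can crystallise. In leaves the granule is laid down by day and broken down at night. Dikinases and phosphatases first add and remove phosphate at the granule surface. Beta-amylases then release maltose, which leaves the chloroplast through MEX1 and is used in the cytosol by DPE2 and PHS2. QQS, whose name stands for qua-quine starch, is an orphan gene found in Arabidopsis thaliana with no recognised relative elsewhere, and lines with less QQS are known to hold more leaf starch. Its transcript is known to vary between wild-type lines with DNA methylation at the locus.

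QQS (AT3G30720) lies on chromosome 3 from 12349047 to 12349933 on the plus strand (TAIR10.1), with exons that cover 687 bases. The 250 bases before its annotated start are shown because QQS was the one gene of the 31 that limma called. They run 5′ to 3′ at chr3:12348797-12349046 on the plus strand of the RefSeq TAIR10.1 genome, and capitals mark an exact word of 10 bases, TCACTCGGAT, that occurs at 197 and again at 103 bases before the start.
QQS upstream: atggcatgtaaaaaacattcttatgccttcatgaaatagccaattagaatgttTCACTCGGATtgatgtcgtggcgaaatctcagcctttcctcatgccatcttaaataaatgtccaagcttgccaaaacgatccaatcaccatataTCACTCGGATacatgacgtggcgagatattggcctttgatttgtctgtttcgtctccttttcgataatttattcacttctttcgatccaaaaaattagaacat
A repeated word of 10 or more bases was sought after the sequence was seen. Any such word, simple runs of bases included, occurs in 28.5% of 27443 windows of the same length before protein-coding genes. It occurs in 8 of the 31 windows described here. The share for words of mixed bases such as TCACTCGGAT was not counted.

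Read counts recovered from the deposited values summed to between 22914893 and 27435729 per library over all genes. Reads not assigned to a gene are not among them. BDT1 is tied by background knowledge, and not by the annotation used here, to AT4G11560. Its normalised read count was 313 and 324 in bdt1, against 1135 and 1117 in Col-0, and it fell 3.53-fold (adjusted p = 3.9e-05 by limma). What part of the gene bdt1 lacks is not stated, so this level does not by itself check the allele. Markers of green shoot and of root, the parts a seedling should hold, were present in all 4 libraries. Summed normalised read counts of 4 root cap markers, a tissue that stores starch in its columella cells, were 73.8 and 75.4 in bdt1 and 129 and 77.2 in Col-0. None of these 4 was at 0. Of 2 seed markers, the storage protein gene CRA1 rose in bdt1, by 1.59 in log2 (SE 0.30, adjusted p = 0.037 by limma). LHCB3, 1 of 4 green shoot markers and a light-harvesting protein gene, fell by 0.65 in log2 (SE 0.07, adjusted p = 0.0034 by limma). The other 3 missed the threshold, with -0.13 in log2 for RBCS1A, 0.02 for RBCS2B and 0.07 for CA1. None of 6 root, 4 root cap and 3 guard cell markers passed. The part of these tissues in the results below was not tested.

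QQS transcripts were scarce in bdt1. It had 9.47 and 8.80 normalised reads in the bdt1 libraries, against 112 and 120 in the Col-0 libraries. The 2 genotypes lay far apart, and the libraries of each genotype lay close together. The recovered reads behind these values were 9 and 9 in bdt1, against 106 and 131 in Col-0. QQS fell 11.6-fold, a log2 change of -3.53 (SE 0.28, 95% interval -4.17 to -2.90, adjusted p = 9.7e-04 by limma). Fold changes are on the log2(normalised read count + 1) scale, which understates the change of low genes. QQS had the largest fall in log2 of the 199 genes called lower in bdt1. Per kilobase of exons, QQS had a level of 13.3 in bdt1 and 169 in Col-0, above 14.1% of tested genes in bdt1 and above 48.5% in Col-0. In whole seedlings, fewer cells of a type and less RNA per cell cannot be told apart. DNA methylation at QQS was not tested. A difference between plant lines at this locus cannot be told apart from a change due to bdt1.

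The fall of QQS was similar in size whichever library was left out, with a log2 fold change between -3.58 and -3.48. With either bdt1 library removed, 0 genes of the whole table passed limma, and 1573 (replicate 1 removed) and 1611 (replicate 2 removed) had an unadjusted p under 0.05. QQS then had an adjusted p = 0.48 and 0.70 in limma. In both cases QQS was called by edgeR's quasi-likelihood test on recovered reads, with adjusted p = 8.3e-04 and 5.4e-04. In all such fits the spread comes from the genotype with 2 libraries left, here Col-0, and the lone library of the other genotype is assumed to vary like them. That test called 145 genes higher and 78 lower without bdt1 replicate 1, and 165 higher and 135 lower without replicate 2.

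**Figure D1:**
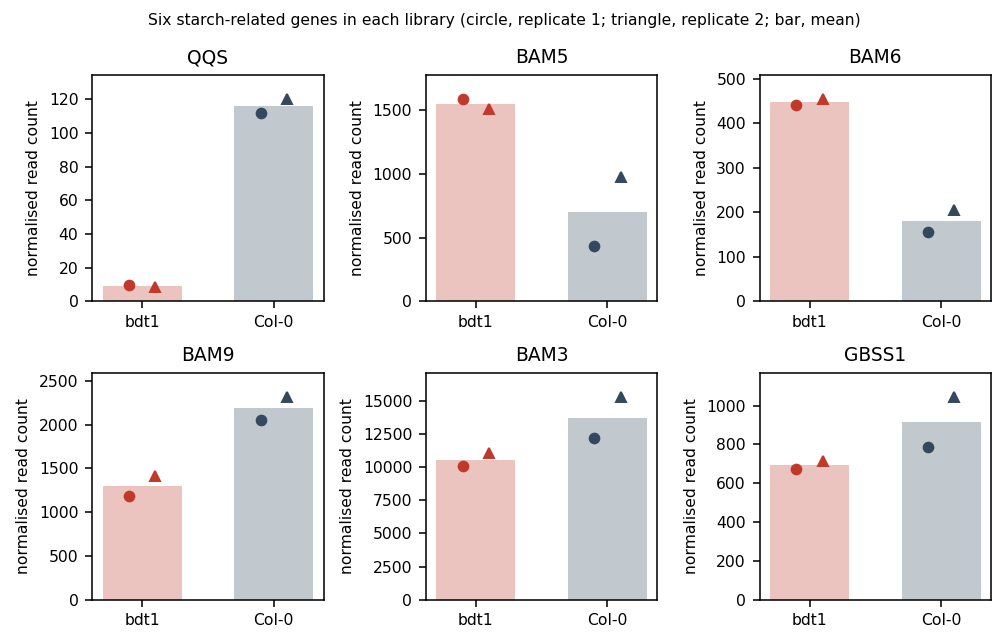
Normalised read count of QQS, 4 beta-amylase genes and GBSS1 in each library, with bdt1 left of Col-0; bars are means of 2 libraries and points the libraries. QQS was at 9.47 and 8.80 in bdt1 against 112 and 120 in Col-0, while BAM5 was at 1590 and 1509 in bdt1 against 435 and 975 in Col-0.

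The 2 detected genes nearest to QQS did not pass the test. The nearest, GDU6, lies 2539 bases away and had a normalised read count of 7.44 and 12.8 in bdt1, against 8.42 and 5.44 in Col-0 (log2 fold change 0.47, SE 0.52, limma adjusted p = 0.71). AT3G30730, at 7347 bases, had 36.9 and 40.1 in bdt1, against 24.4 and 33.2 in Col-0 (log2 fold change 0.42, SE 0.30, limma adjusted p = 0.53). Both values are low, and the 95% intervals of -0.72 to 1.66 and -0.26 to 1.10 are wide. Neither interval reaches the fall of QQS. The other 4 of the 3 nearest genes on each side were at 0 in all 4 libraries.

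Genes known to act on silencing or with the QQS protein were read beside QQS. NF-YC4, a subunit of the NF-Y transcription factor that the QQS protein is known to bind, had a normalised read count of 468 and 490 in bdt1, against 603 and 642 in Col-0. Both bdt1 libraries were below both Col-0 libraries, and NF-YC4 did not pass the test (log2 fold change -0.38, SE 0.08, limma adjusted p = 0.064). Of 11 genes of DNA methylation and silencing, 1 fell and none rose, where 0.856% and 1.2% of all tested genes did. The one that fell was DDM1, a chromatin remodeller needed for DNA methylation. DDM1 had 540 and 559 in bdt1, against 758 and 704 in Col-0 (log2 fold change -0.41, SE 0.08, limma adjusted p = 0.041). MET1, the maintenance DNA methyltransferase, did not pass, at 2168 and 2192 in bdt1 against 2496 and 2220 in Col-0. ROS1, a DNA demethylase, did not pass either, at 1856 and 1909 in bdt1 against 1806 and 1688 in Col-0. The log2 fold change was negative for 10 of the 11 (90.9%), all but ROS1. It was negative for 49.3% of all tested genes and 58.2% of those with a mean of at least 300. Both bdt1 libraries lay below both Col-0 libraries in 9 and above them in 1, where 23.7% and 25.2% of all tested genes did. Of the 11951 tested genes with a mean of at least 300, 3738 lay below and 2447 above. The Col-0 libraries also differed, with replicate 2 above replicate 1 in 2 of the 11 (18.2%). The median difference between these 2 libraries was -0.105 log2 units, beside a median log2 fold change of -0.111 in bdt1. DDM1, KYP, RDR2 and NRPE1 had an unadjusted p under 0.05 by limma (36.4%). So did 16.4% of all tested genes and 18.2% of those with a mean of at least 300. KIN10 and KIN11, catalytic subunits of the energy-sensing kinase SnRK1, missed the threshold at -0.12 in log2 each.

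Apart from QQS, none of the 31 genes passed the test. Of the 31 genes, 1 fell and none rose in bdt1 (limma, adjusted p under 0.05), where 0.856% of all 23256 tested genes fell and 1.2% rose. Both bdt1 libraries lay below both Col-0 libraries in 12 of the 31 and above them in 4, where 23.7% and 25.2% of all tested genes did. Lower genes overlap more often, and of the 11951 tested genes with a mean of at least 300, 3738 lay below and 2447 above. At an unadjusted p under 0.05 stood 9 of the 31 (29.0%), against 18.2% of the 11951 tested genes with a mean of at least 300, the range in which all but QQS lie. edgeR also called QQS alone, where it called 1.48% of its tested genes higher and 1.04% lower. DESeq2 called QQS and BAM3, where it called 1.22% higher and 1.05% lower. The 95% interval of the log2 fold change lay between -1 and 1 for 29 of the 31, so changes of 2-fold or more lay outside it for these genes. The exceptions were QQS and BAM5. The median log2 fold change was -0.06, against 0.00 over all tested genes and -0.02 over those with a mean of at least 300. The log2 fold change was negative for 25 of the 31 (80.6%), against 58.2% of tested genes with a mean of at least 300. Many of these signs rest on Col-0 replicate 2. Without that library the value turned positive for ADG1, APL3, SS3, SBE2.1, GWD1, PWD, SEX4, BAM1, MEX1 and ISA1. Without Col-0 replicate 1 it turned positive for APL2 and negative for PGM1 and AMY3.

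**Figure D2:**
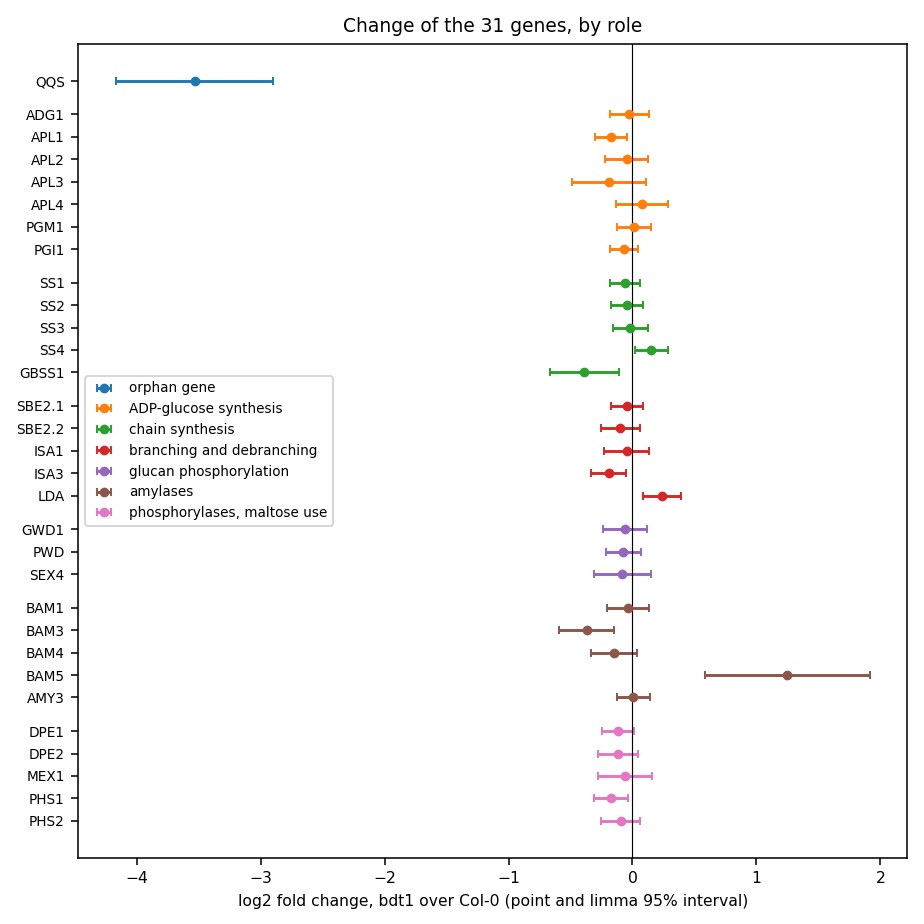
Log2 fold change of bdt1 over Col-0 for the 31 genes, grouped by role; points are limma estimates and bars 95% intervals. QQS stands apart at -3.53, BAM5 lies at 1.25 with a wide interval, and the other 29 lie between -0.39 and 0.24.

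None of the 7 genes that supply ADP-glucose passed the test. ADG1 (AT5G48300), the small catalytic subunit of ADP-glucose pyrophosphorylase, had the highest level per length of this group. Its normalised read count was 11636 and 12346 in bdt1, against 11463 and 12975 in Col-0 (log2 fold change -0.03, 95% interval -0.18 to 0.13, limma adjusted p = 0.89). The bdt1 libraries lay within the Col-0 range. Of the large regulatory subunits, APL1 (AT5G19220), the main leaf form, had 3460 and 3415 in bdt1, against 3731 and 4027 in Col-0, with no overlap (log2 fold change -0.17, SE 0.06, limma adjusted p = 0.18). APL3 (AT4G39210) had 853 and 895 in bdt1, against 849 and 1167 in Col-0, the largest difference of the group at -0.19 in log2 (SE 0.13, limma adjusted p = 0.52). Its value rests on Col-0 replicate 2, since the log2 fold change was 0.04 without that library. APL2 (AT1G27680), APL4 (AT2G21590), and the plastid enzymes PGM1 (AT5G51820) and PGI1 (AT4G24620), which make the glucose 1-phosphate used here, had log2 fold changes between -0.07 and 0.08. Per kilobase of exons, ADG1 stood at 6318 in bdt1 and 6438 in Col-0, against 1985 and 2240 for APL1. APL2, APL3 and APL4 stood at 412, 416 and 147 in bdt1 and at 426, 479 and 139 in Col-0.

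Among the enzymes that build chains, GBSS1 (AT1G32900), the granule-bound synthase that makes amylose, differed most. Its normalised read count was 672 and 715 in bdt1, against 788 and 1043 in Col-0. Both bdt1 libraries were lower, and the 2 Col-0 libraries lay further apart than the 2 bdt1 libraries. GBSS1 did not pass the test (log2 fold change -0.39, SE 0.12, 95% interval -0.67 to -0.11, limma adjusted p = 0.17), and leaving out one Col-0 library at a time gave -0.59 and -0.19. SS4 (AT4G18240), a synthase needed to start granules, had the highest level per length of this group, at 5604 and 5758 normalised reads in bdt1 against 4906 and 5330 in Col-0 (log2 fold change 0.15, SE 0.06, limma adjusted p = 0.24). SS1 (AT5G24300), SS2 (AT3G01180) and SS3 (AT1G11720), which lengthen amylopectin chains, had log2 fold changes between -0.06 and -0.02.

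The branching and debranching enzymes split in direction without any call. LDA (AT5G04360), the limit dextrinase that removes branches during breakdown, had a normalised read count of 1873 and 1731 in bdt1, against 1476 and 1578 in Col-0. Both bdt1 libraries were higher, by 0.24 in log2 (SE 0.07, 95% interval 0.09 to 0.39, limma adjusted p = 0.13). ISA3 (AT4G09020), the isoamylase that works beside LDA in breakdown, had 2202 and 2277 in bdt1, against 2454 and 2668 in Col-0, or -0.19 in log2 (SE 0.06, limma adjusted p = 0.17). ISA1 (AT2G39930), which trims branches during synthesis, overlapped between genotypes. SBE2.1 (AT2G36390), the most abundant of the group per length, had 4623 and 4515 in bdt1, against 4534 and 4898 in Col-0, and SBE2.2 (AT5G03650) overlapped as well (log2 fold changes of -0.05 for SBE2.1 and -0.10 for SBE2.2).

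The 3 genes that set granule phosphate overlapped between genotypes. PWD (AT5G26570), which phosphorylates glucans already marked by GWD1 (AT1G10760), had the highest level per length of them. Its normalised read count was 8505 and 8515 in bdt1, against 8477 and 9479 in Col-0 (limma adjusted p = 0.60). GWD1, the glucan water dikinase also known as SEX1, had 9344 and 9294 in bdt1, against 8924 and 10580 in Col-0. SEX4 (AT3G52180), the phosphoglucan phosphatase, had 2420 and 2418 in bdt1, against 2267 and 2887 in Col-0. The log2 fold changes lay between -0.08 and -0.06. In all 3 genes the bdt1 libraries were nearly equal and lay between the 2 Col-0 libraries.

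The genes of phosphorolysis and maltose use were lower on average in bdt1, and none passed. PHS1 (AT3G29320), the plastid glucan phosphorylase, had a normalised read count of 6854 and 7088 in bdt1, against 7468 and 8273 in Col-0, with no overlap (log2 fold change -0.17, SE 0.06, 95% interval -0.31 to -0.03, limma adjusted p = 0.21). PHS2 (AT3G46970), its cytosolic relative and the most abundant of this group per length, had 8322 and 8784 in bdt1, against 8584 and 9723 in Col-0. DPE1 (AT5G64860) and DPE2 (AT2G40840), glucanotransferases of the plastid and the cytosol, had log2 fold changes of -0.12 each, and both bdt1 libraries were below both Col-0 libraries. The maltose exporter MEX1 (AT5G17520) stood at -0.06, with overlap. Of its exonic 50-base words, 62.2% occur elsewhere in the genome, so its value is uncertain where reads could be shared with a copy. No other of the 31 genes had such a word elsewhere. The adjoining gene AT5G17523 was at 0 in all libraries. How shared reads were counted is not given, so this 0 does not show that the MEX1 value is free of them.

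**Figure D3:**
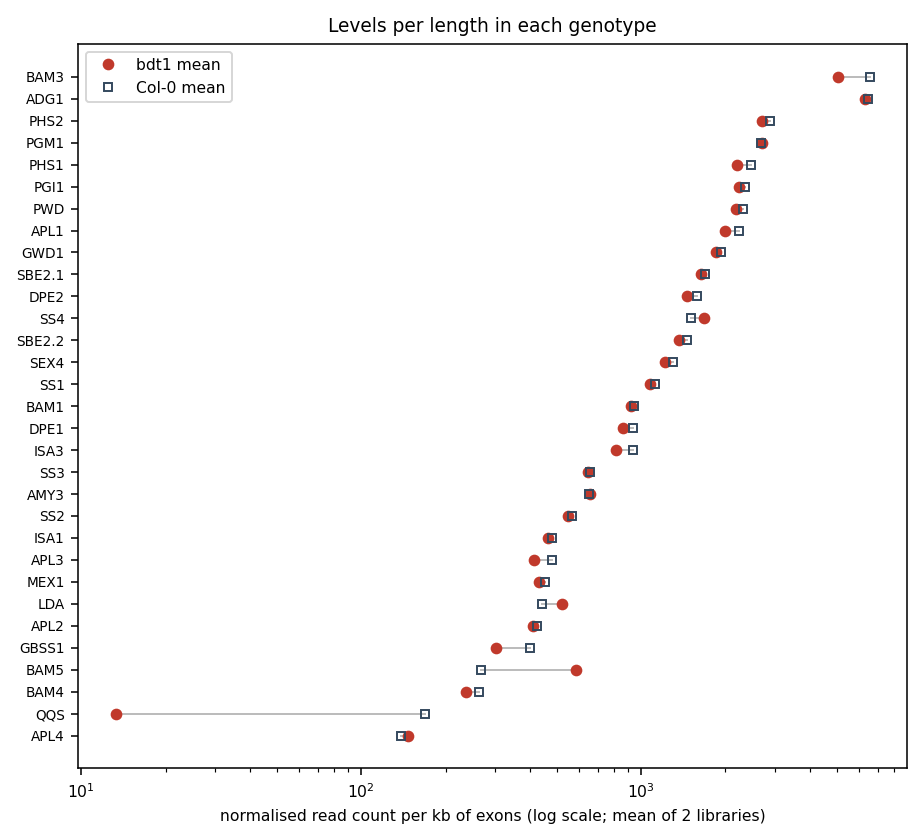
Normalised read count per kilobase of exons for the 31 genes in bdt1 (filled circles) and Col-0 (open squares), means of 2 libraries on a log axis, ordered by the Col-0 level. BAM3 and ADG1 lead in both genotypes, and QQS is the lowest gene in bdt1 at 13.3 and second lowest in Col-0 at 169.

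The 5 amylases had the widest range of log2 fold changes among the role groups, from -0.37 to 1.25, and none passed. BAM3 (AT4G17090), the main beta-amylase of chloroplasts at night, had the highest level per length of this group. Its normalised read count was 10127 and 11056 in bdt1, against 12214 and 15309 in Col-0. Both bdt1 libraries were lower, and BAM3 missed the threshold in limma (log2 fold change -0.37, SE 0.10, 95% interval -0.59 to -0.15, adjusted p = 0.11) while passing in DESeq2 (log2 fold change -0.38, adjusted p = 0.006). Without Col-0 replicate 2 its log2 fold change was -0.21, and without Col-0 replicate 1 it was -0.53. BAM5 (AT4G15210), a beta-amylase located outside the plastid and known from phloem, had 1590 and 1509 in bdt1, against 435 and 975 in Col-0. It lay higher in both bdt1 libraries, but the Col-0 libraries were themselves more than 1 log2 unit apart. BAM5 did not pass (log2 fold change 1.25, SE 0.29, 95% interval 0.59 to 1.91, limma adjusted p = 0.074). Its log2 fold change was 0.67 without Col-0 replicate 1 and 1.83 without Col-0 replicate 2. limma called it in each of these cases (adjusted p = 5.5e-04 and 6.0e-04), but the spread then comes from the 2 bdt1 libraries alone, which differed by -0.08 log2 units in BAM5, and leaves out the difference of 1.16 between the Col-0 libraries. BAM1 (AT3G23920), a beta-amylase active in guard cells, and AMY3 (AT1G69830), the plastid alpha-amylase, overlapped between genotypes, at log2 fold changes of -0.04 and 0.01. BAM4 (AT5G55700), which regulates breakdown without itself cutting starch, stood at -0.15, with 478 and 480 in bdt1 against 522 and 539 in Col-0.

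Among 27 further starch genes from a separate list, 1 rose and 1 fell, where 1.2% and 0.856% of all tested genes did, and both were beta-amylases. BAM6 (AT2G32290) had a normalised read count of 440 and 454 in bdt1, against 157 and 204 in Col-0. It rose 2.49-fold (log2 fold change 1.32, SE 0.14, limma adjusted p = 0.0034). BAM9 (AT5G18670), a plastid beta-amylase without catalytic activity, had 1188 and 1411 in bdt1, against 2056 and 2313 in Col-0. It fell 1.68-fold (log2 fold change -0.75, SE 0.09, limma adjusted p = 0.0065). The genotypes did not overlap in either gene. The call of both was lost when limma was fitted without its trend (adjusted p = 0.16 and 0.24) and without bdt1 replicate 1 or 2 (adjusted p = 0.70 each time), where edgeR, with the spread from Col-0 alone, called both (BAM6 adjusted p = 0.0027 and 0.0029, BAM9 adjusted p = 0.015 and 0.0016). GPT2, a plastid glucose 6-phosphate carrier and the next largest difference, had 162 and 171 in bdt1, against 90.3 and 141 in Col-0, and missed the threshold (0.56 in log2, SE 0.21, adjusted p = 0.25 by limma). Its log2 fold change was 0.24 without Col-0 replicate 1 and 0.88 without Col-0 replicate 2. The 27 genes had a median log2 fold change of -0.01, and 24 of them lay between -0.5 and 0.5, the exceptions being BAM6, BAM9 and GPT2.

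The 9 beta-amylase genes together held 1 that rose and 1 that fell, against 1.2% and 0.856% of all tested genes. Per kilobase of exons BAM3 stood far above the rest, at 5036 in bdt1 and 6544 in Col-0. BAM9 was next in Col-0, at 653 in bdt1 and 1098 in Col-0, while BAM1 was next in bdt1, at 916 in bdt1 and 942 in Col-0. BAM5 stood at 587 in bdt1 and 267 in Col-0, and BAM6 at 228 in bdt1 and 92.2 in Col-0. BAM2, BAM7 and BAM8 missed the threshold, at -0.07, -0.07 and 0.15 in log2.

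**Figure D4:**
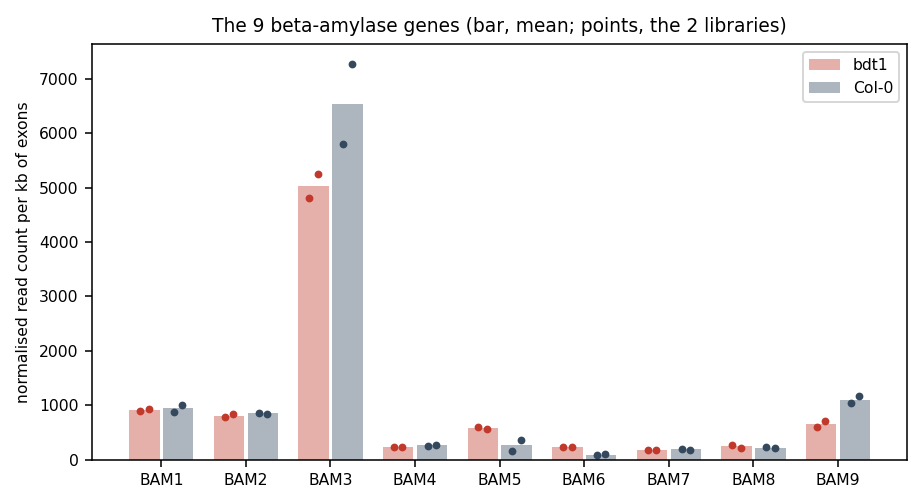
Normalised read count per kilobase of exons for the 9 beta-amylase genes, with bdt1 left of Col-0 in each pair; bars are means of 2 libraries and points the libraries. BAM3 exceeds all others in both genotypes, BAM5 and BAM6 are higher in bdt1, and BAM9 is lower.

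The upstream windows of BAM6 and BAM9 are shown as those of the called genes besides QQS. Capitals mark a G-box, CACGTG, a motif bound by bZIP and bHLH factors. The windows run 5′ to 3′ on the strand of the gene, at chr2:13717003-13717252 (minus strand) for BAM6 and chr5:6225706-6225955 (plus strand) for BAM9 (RefSeq, TAIR10.1).
BAM6 upstream: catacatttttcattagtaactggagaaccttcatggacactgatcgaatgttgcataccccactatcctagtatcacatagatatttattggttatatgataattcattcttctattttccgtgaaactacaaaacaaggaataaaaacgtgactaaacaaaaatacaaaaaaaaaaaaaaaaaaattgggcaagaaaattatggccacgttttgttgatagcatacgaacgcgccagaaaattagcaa
BAM9 upstream: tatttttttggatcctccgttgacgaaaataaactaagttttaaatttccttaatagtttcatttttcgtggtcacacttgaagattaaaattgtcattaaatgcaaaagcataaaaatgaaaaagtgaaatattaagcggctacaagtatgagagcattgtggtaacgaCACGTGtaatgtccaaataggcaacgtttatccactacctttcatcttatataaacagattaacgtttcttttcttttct
In all, 3 motifs were searched on both strands, and the G-box is its own reverse complement. The G-box CACGTG lies 80 bases before the start of BAM9. Among the 31 genes it occurs in 8 windows (25.8%), those of PGI1, SS1, SS3, SS4, SBE2.1, DPE1, PHS1 and PHS2, and in 6.49% of all 27443. The evening element AAAATATCT, bound by clock factors, occurs in the windows of PGM1, PWD and ISA3 (9.68%), and in 2.36% of all. The CCA1-binding site AAAAATCT occurs in those of SBE2.2, DPE2 and ISA1 (9.68%), and in 6.69% of all. The windows of QQS and BAM6 hold none of the 3. The 27443 windows include those of genes below the filter on low values, which all 31 genes passed. Shares among tested genes alone are not given.

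The 2 Col-0 libraries differed from each other across the starch genes. Col-0 replicate 2 was above Col-0 replicate 1 in 29 of the 31 genes (93.5%), against 52.6% of tested genes with a mean of at least 300. The exceptions were APL2 and SS1. The median difference between these libraries was 0.12 log2 units over the 31 genes and 0.01 over tested genes with a mean of at least 300. It was 0.12 over 15 genes of synthesis and 0.18 over 15 of breakdown, and all 15 breakdown genes were higher in replicate 2. The 2 bdt1 libraries differed by a median of 0.02 over the 31 genes, with replicate 2 higher in 20. In 9 of the 31 genes both bdt1 libraries lay between the 2 Col-0 libraries (29.0%), against 14.7% of all tested genes and 15.4% of those with a mean of at least 300. GWD1, PWD, SEX4 and MEX1 are among them.

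**Figure D5:**
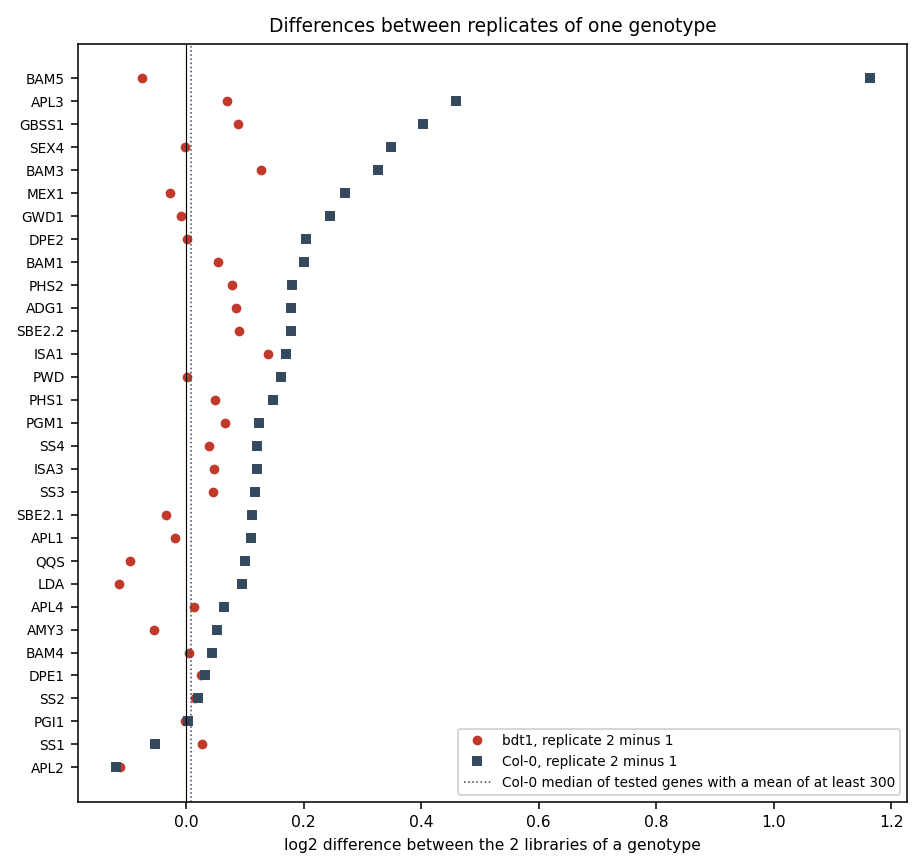
Log2 difference between replicate 2 and replicate 1 within bdt1 (circles) and within Col-0 (squares) for the 31 genes; the dotted line is the Col-0 median of tested genes with a mean of at least 300. The Col-0 squares lie above 0 for 29 of 31 genes and reach 1.16 for BAM5, while the bdt1 circles lie between -0.11 and 0.14.

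The number of starch genes called differed with the Col-0 library left out. Without Col-0 replicate 1, limma called 11 of the 31 lower and 1 higher, where 3.34% and 2.32% of all tested genes were called. With 1 Col-0 library left, the spread in these fits comes from the bdt1 pair alone, whose median absolute difference over the 31 genes was 0.05 log2 units, against 0.12 between the Col-0 libraries. The calls therefore do not carry the scatter between Col-0 libraries. The lower ones besides QQS were APL1, APL3, GBSS1, GWD1, SEX4, BAM3, DPE2, PHS1, PHS2 and ISA3, at log2 fold changes between -0.59 and -0.18. Without Col-0 replicate 2, limma called QQS lower and BAM5 higher, where 0.916% and 1.27% of all tested genes were called. ADG1, SEX4, GWD1, BAM1 and MEX1 then had log2 fold changes between 0.06 and 0.09, with none passing.

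Clock genes were read beside these values, because many starch genes cycle through the day. Of 12 clock genes 1 fell and none rose, against 0.856% and 1.2% of all tested genes. The one that fell was PRR5, a repressor active later in the day, at 314 and 341 normalised reads in bdt1 against 453 and 541 in Col-0 (log2 fold change -0.60, SE 0.11, limma adjusted p = 0.037). The 12 log2 fold changes ranged from -0.60 to 1.45, with a median of 0.10, and the highest was that of PRR9, which had at most 5 reads in a library. The evening gene TOC1 had 2849 and 2889 in bdt1, against 2939 and 2974 in Col-0, and the morning gene CCA1 had 144 and 169 in bdt1, against 131 and 143 in Col-0. Neither passed. PRR5, ELF4, LHY, PRR3 and PRR7 had an unadjusted p under 0.05 by limma (41.7%, against 16.4% of all tested genes). ELF4, LHY and PRR3 stood at 0.30, 0.27 and 0.26 in log2, and PRR7 at -0.415. Both bdt1 libraries lay above both Col-0 libraries in 5 of the 12 and below them in 3, where 25.2% and 23.7% of all tested genes did. The median difference between Col-0 replicates 2 and 1 was 0.04 log2 units over the 12 clock genes, and 7 of them were higher in replicate 2. The part of the clock in the difference between the Col-0 libraries was not tested.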

How the data were processed

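RNA of 10-day-old seedlings was sequenced as paired reads of 150 bases, per the labels' protocols, from 2 bdt1 and 2 Col-0 libraries. Per the submitters' processing notes, reads were handled with HISAT2 2.2.0 and edgeR against TAIR10. The sources used here do not give the read counter, the annotation version or the strandedness, so reads of a gene and of an antisense partner may be mixed. The deposited values are a signal, normalised read counts that the authors adjusted to 1 common library size. They have the form of edgeR pseudo-counts. The adjustment was undone with fitted library sizes and a common dispersion of 0.00544, after which 100% of values lay within 0.001 reads of a whole count. On them edgeR called 303 genes higher and 214 lower.

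limma 3.58.1 (R 4.3.3) was fitted to log2(normalised read count + 1) with a mean-variance trend over all 23256 genes with a mean of at least 1, with Benjamini-Hochberg adjustment over them. Alternatives were edgeR 4.0.16 and DESeq2 1.42.0 on recovered counts, TMM scaling, quantile normalisation, other filters and pseudocounts, no trend, a replicate block, and each library left out. The edgeR fits with a library left out were added after seeing the data. Scripts were tested on simulated data. Exon lengths, positions and upstream windows of 250 bases came from the RefSeq TAIR10.1 annotation and genome, in which all identifiers used were found; TAIR10 and TAIR10.1 were taken to share the nuclear chromosomes, and the table has no coordinates. The design planned motif counts from a promoter table, and the genome was used in its place. The genes, lists and tests were chosen with earlier results of these data known. Genes named in full are QQS, called genes, and for each role the gene with the largest change and that with the highest mean level, plus the 3 largest changes of the further starch list; others were named after their values were seen.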

Additional observations from a re-analysis of the deposited data

How the results depend on the processing

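The fall of QQS kept its direction in all settings where it was tested, with log2 fold changes between -3.74 (quantile normalisation) and -3.10 (pseudocount 5). A filter at a mean of 100 removed QQS from the test, so 0 of the 31 genes were lower there. DESeq2 called 2 lower. With a library left out, its genotype has 1 library, assumed to vary like the other 2, so these counts do not test the scatter of that genotype. Leaving out a library gave 0 to 11 of the 31 lower and 0 to 1 higher in limma, and 1 to 13 lower and 0 to 3 higher in edgeR. The further starch list had 0 to 1 higher and 0 to 2 lower in limma, and 1 to 3 higher and 1 to 2 lower in edgeR. Over all tested genes limma called 0 to 540 higher and 0 to 776 lower, and edgeR 145 to 1021 higher and 78 to 1144 lower (781 and 1144 without Col-0 replicate 1, 1021 and 1030 without Col-0 replicate 2, 165 and 135 without bdt1 replicate 2). Without the trend limma called 42 genes higher and 6 lower and 0 and 0 of the further starch list. A pseudocount of 0.1 gave 123 lower, and the filter at a mean of 100 gave 182 higher. With the replicate number as a block, 2 of the 31 were higher and 5 lower, 2 of the further list were lower, and 901 and 917 genes of the table were called. The deviations of same-numbered libraries had a correlation of -0.01 across genes, so the numbers are not taken to pair the samples. The cause of these changes was not tested.

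Sign changes occurred in 13 of the 31 genes, none of which passed the test. Quantile normalisation gave 0.044 for ADG1, 0.015 for SS3 and 0.006 for GWD1. With a library left out, the log2 fold change ranged from -0.114 to 0.064 for ADG1, -0.107 to 0.012 for APL2, -0.418 to 0.042 for APL3, -0.049 to 0.074 for PGM1, -0.076 to 0.041 for SS3, -0.101 to 0.011 for SBE2.1, -0.183 to 0.062 for GWD1, -0.156 to 0.006 for PWD, -0.255 to 0.093 for SEX4, -0.136 to 0.064 for BAM1, -0.196 to 0.075 for MEX1, -0.133 to 0.039 for ISA1 and -0.02 to 0.034 for AMY3. With 2 libraries a genotype, small changes could be missed.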
